A study of Mus musculus with 7 samples.

Results

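The 9 genes Glul, Glud1, Got1, Got2, Prodh, Aldh4a1, Aldh18a1, Oat and Asns encode enzymes that make, use or interconvert glutamine, glutamate, proline, ornithine, aspartate and asparagine. They were taken by name, with every probe set paired with them, and this gave 19 of the 45037 probe sets of the array that are not controls. Expression had been measured in brown fat labelled as from male mice of the strain C57BL/6J aged 3 days, in 4 samples labelled KO (replicates 1 to 4) and 3 labelled wild type (replicates 1, 3 and 4), each on 1 array. The series title names the knocked-out gene as Gyk, which encodes glycerol kinase, and the labels say nothing of how the allele was made or whether each sample is a separate animal. Gyk itself was not analysed here, so each genotype rests on its label. No treatment is given for either group, and both groups carry the same labels of strain, sex, age and tissue, though the Xist signal of 1 KO array, given further on, goes against its label of sex.

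Glutamate stands at the centre of this part of metabolism. Glutamine synthetase (Glul) joins ammonia to glutamate, glutamate dehydrogenase (Glud1) and the aminotransferases Got1 and Got2 link glutamate with the tricarboxylic acid cycle, and asparagine synthetase (Asns) takes nitrogen from glutamine. Proline is oxidised in mitochondria to glutamate by Prodh and then Aldh4a1, while Aldh18a1 starts the synthesis of proline and ornithine from glutamate and Oat connects ornithine with the same intermediate. Brown fat burns fatty acids and glucose for heat, and its mitochondria need a supply of cycle intermediates to which glutamate contributes.

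Signals are intensities in array units on a linear scale, with medians of 131 to 154 over the 7 arrays. The array labelled KO replicate 2 stood apart from the other KO arrays: it correlated most with wild-type replicate 1 (0.975 over tested probe sets), and a probe set of Xist, the RNA that coats the inactive X, read 2757 on it against 183 to 273 on the other 6, which goes against the male label of that sample. Differences of the 9 genes are therefore given below with and without it. Those of single other genes are from all 7 arrays. Of 12 brown adipocyte markers 11 were tested, and their summed signal was 156656 to 200299 on the KO arrays and 162030 to 187951 on the wild-type arrays. All values of the 9 genes describe the contrast of KO with wild type for which the genes were chosen. The 9 were chosen by name with their KO and wild-type levels already known. Calls and counts of their probe sets under a p threshold are therefore descriptions and not tests, and no single p is printed for them. In a tissue sample, fewer cells of a type and less RNA per cell cannot be told apart.

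In KO brown fat Prodh, Glul and Glud1 were higher, Oat was slightly higher, 2 of 5 Aldh18a1 probe sets were lower on every array, and Asns, Got1, Got2 and Aldh4a1 overlapped between the groups. Of the 19 probe sets 17 had enough signal to be tested. On 6 of these 17 the lowest KO array lay above the highest wild-type array, as it did on 7.48% of all 27022 tested probe sets, on 2 the KO arrays all lay below, as on 7.25% of all, and on 9 the groups overlapped. A fit over all tested probe sets (limma, adjusted p under 0.05) called 4 of the 17 higher and 0 lower, against 0.951% and 0.644% of all tested probe sets. Before adjustment, 6 of the 17 were higher and 3 lower with p under 0.05, against 7.97% and 8.55% of all. The 4 were both Glul probe sets, the Prodh probe set and 1 of 2 for Glud1. The Glud1 call was lost with scaling by the median, with an offset of 1 and without a filter, and both Glul calls were lost without a filter. The median log2 difference, KO minus wild type, was -0.08 over the 17 and 0 over all tested probe sets.

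**Figure D1:**
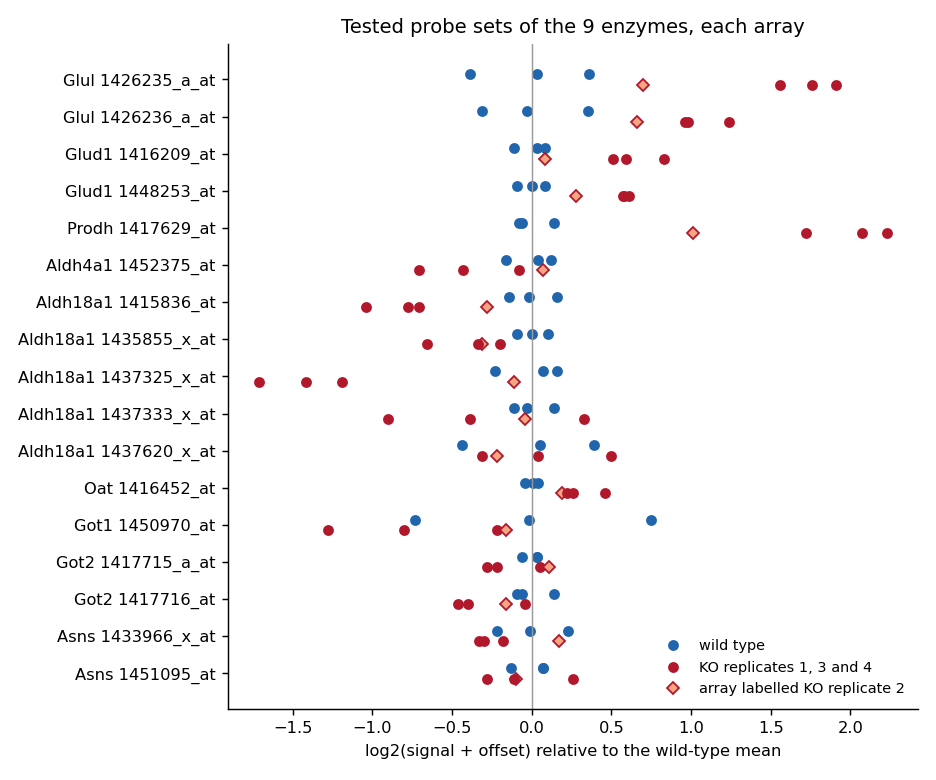
Each row is 1 tested probe set of the 9 enzymes, and each point is 1 array, placed by its log2(signal + offset) minus the mean of the 3 wild-type arrays. KO points (red; the array labelled KO replicate 2 as a pale diamond) lie to the right of all wild-type points (blue) in the rows of Glul, Glud1, Prodh and Oat, and 3 of the 4 KO points lie more than 1 unit to the left for Aldh18a1 1437325_x_at.

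Glul, the only enzyme of the set that makes glutamine, was read by 2 probe sets. Its promoter is shown because both probe sets were higher on every KO array. The 250 bases before the start of the gene (chr1:153899679-153899928, plus strand, RefSeq, GRCm38.p6) read as follows, with capitals for matches on either strand to the motifs named further on.
Glul: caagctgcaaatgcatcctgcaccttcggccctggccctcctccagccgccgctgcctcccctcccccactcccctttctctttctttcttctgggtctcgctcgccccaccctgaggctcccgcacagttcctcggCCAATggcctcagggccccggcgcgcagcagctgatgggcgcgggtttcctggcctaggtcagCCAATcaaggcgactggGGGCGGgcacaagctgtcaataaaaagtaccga

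On probe set 1426235_a_at Glul read 8115, 3875, 7087 and 9038 on KO replicates 1 to 4. Wild-type replicates 1, 3 and 4 read 3052, 2434 and 1808. The groups did not overlap, and KO replicate 2 lay nearest to wild type. The mean was 7029 ± 2250 (SD, n = 4) in KO and 2432 ± 622 (n = 3) in wild type, a log2 difference of 1.48 ± 0.27 (SE) or 2.79-fold, and 1.74 ± 0.18 without the array labelled KO replicate 2. Fold changes here are on the log2(signal + 30.6) scale, which understates the change of dim probe sets.

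The brighter probe set, 1426236_a_at, gave the same order of the groups with a smaller ratio. It read 15286, 10248, 12600 and 12828 on KO replicates 1 to 4 and 8229, 6318 and 5198 on wild-type replicates 1, 3 and 4. Wild-type replicate 1 was the highest and replicate 4 the lowest of the wild-type arrays on both probe sets. The log2 difference was 0.96 ± 0.17 (1.95-fold), and 1.06 ± 0.16 without the array labelled KO replicate 2. Which of the 2 ratios is nearer to the change in RNA was not tested.

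Glud1, which converts glutamate to 2-oxoglutarate and ammonia in mitochondria, was higher by less. On probe set 1448253_at it read 6183, 4926, 6065 and 6026 on KO replicates 1 to 4, and 4282, 3797 and 4052 on wild-type replicates 1, 3 and 4. KO replicates 1, 3 and 4 lay close together, with KO replicate 2 below them and above all wild-type arrays. The log2 difference was 0.51 ± 0.11 (1.43-fold), and 0.59 ± 0.09 without the array labelled KO replicate 2.

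The other Glud1 probe set, 1416209_at, had nearly the same difference with a wider spread. It read 8543, 5068, 7234 and 6852 on KO replicates 1 to 4 and 4893, 4457 and 5062 on wild-type replicates 1, 3 and 4. KO replicate 2 was barely above wild-type replicate 4. The log2 difference was 0.50 ± 0.16, which the fit did not call, and 0.64 ± 0.11 without the array labelled KO replicate 2, which it did. RefSeq also lists a Glud pseudogene, and a contribution of it to these signals was not tested. The 250 bases before the gene (chr14:34310477-34310726, plus strand) have a GC content of 82.0%, against 57.2% before Aldh18a1 and a median of 52.4% over all promoters in the table.
Glud1: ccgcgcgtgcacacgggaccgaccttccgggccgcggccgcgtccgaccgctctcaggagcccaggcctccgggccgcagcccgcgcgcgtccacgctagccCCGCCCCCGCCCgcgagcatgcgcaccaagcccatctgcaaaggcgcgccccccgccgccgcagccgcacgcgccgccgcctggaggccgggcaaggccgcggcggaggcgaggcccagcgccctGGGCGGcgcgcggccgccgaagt

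**Figure D2:**
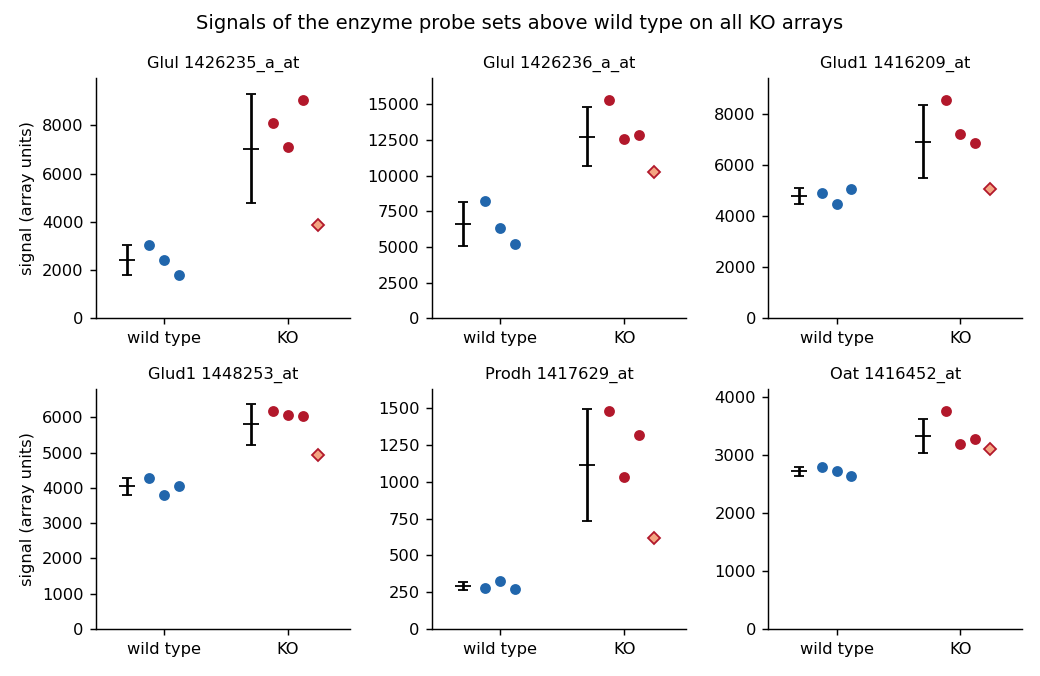
Signals in array units of the 6 probe sets on which all KO arrays lay above all wild-type arrays, on linear axes from 0, with wild type in blue and KO in red (the array labelled KO replicate 2 as a pale diamond); black bars are group means with SD (n = 3 and 4). The pale diamond is the lowest KO point in every panel, and it comes closest to wild type on Glud1 1416209_at.

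The cytosolic and mitochondrial aspartate aminotransferases Got1 and Got2 exchange amino groups between glutamate and oxaloacetate and are part of the malate-aspartate shuttle. Got1, read by 1 probe set (1450970_at), gave 572, 597, 258 and 372 on KO replicates 1 to 4 and 660, 1154 and 392 on wild-type replicates 1, 3 and 4. Wild-type replicate 3 read far above the other wild-type arrays, and the groups overlapped. The log2 difference was -0.62 ± 0.34, and -0.77 ± 0.36 without the array labelled KO replicate 2.

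Got2 was read by 4 probe sets, 2 of them too dim to be tested (15.5 to 84.5 on 1430397_at and 36.9 to 106 on 1447768_at). On 1417715_a_at it read 2122, 2219, 1761 and 1688 on KO replicates 1 to 4 against 2098, 1972 and 2092 on wild-type replicates 1, 3 and 4. KO replicates 3 and 4 were below all wild-type arrays and KO replicates 1 and 2 above them. The log2 differences were -0.08 ± 0.12 on this probe set and -0.26 ± 0.14 on 1417716_at, neither of them called. Without the array labelled KO replicate 2 they were -0.15 ± 0.12 and -0.30 ± 0.15, again not called. RefSeq lists a pseudogene of Got2 as well, and its part in these signals was not tested.

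Prodh, the enzyme that takes the first step of proline oxidation and passes electrons to the respiratory chain, had the largest log2 difference of the 9 genes with all 7 arrays in the fit. It is known as a target of p53. Its promoter is printed because of that difference, over the 157 bases of the 250 that lie outside the annotated gene (chr16:18089284-18089440, minus strand). The 250 bases held a match to 0 of the 6 motifs searched, so there are no capitals.
Prodh: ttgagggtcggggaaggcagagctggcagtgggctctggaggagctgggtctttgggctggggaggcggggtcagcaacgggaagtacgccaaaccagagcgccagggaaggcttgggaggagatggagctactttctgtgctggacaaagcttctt

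Prodh read 1482, 620, 1031 and 1322 on KO replicates 1 to 4. It read 279, 324 and 274 on wild-type replicates 1, 3 and 4. The wild-type arrays lay close together, the KO arrays all lay above them, and KO replicate 2 was the lowest of the KO arrays. The mean was 1114 ± 379 (SD, n = 4) in KO against 292 ± 27.3 (n = 3) in wild type, a log2 difference of 1.76 ± 0.25 (SE) or 3.39-fold. Without the array labelled KO replicate 2 the difference was 2.01 ± 0.16. Relative to the wild-type mean that array stood 1.01 higher on the log2 scale.

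Aldh4a1, which completes the conversion of proline to glutamate, was not higher with it. It read 1032, 1147, 656 and 802 on KO replicates 1 to 4 and 1189, 970 and 1121 on wild-type replicates 1, 3 and 4 (1452375_at). The groups overlapped, and KO replicates 3 and 4 were the lowest arrays. The log2 difference was -0.28 ± 0.18, and -0.40 ± 0.17 without the array labelled KO replicate 2.

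Aldh18a1 makes the semialdehyde from which proline and ornithine are built. Its 5 probe sets differed among themselves. On 1415836_at it read 153, 216, 144 and 116 on KO replicates 1 to 4 and 264, 303 and 242 on wild-type replicates 1, 3 and 4, so that every KO array was lower (log2 difference -0.70 ± 0.21, not called). On 1437325_x_at KO replicates 1, 3 and 4 read 89.3, 142 and 116, against 380, 408 and 305 on wild-type replicates 1, 3 and 4. KO replicate 2 read 333 there, inside the wild-type range. The difference was -1.11 ± 0.33 with all arrays and -1.44 ± 0.20 without the array labelled KO replicate 2. That of 1415836_at was -0.84 ± 0.19 without it, and there the fit called both of these probe sets lower.

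The remaining Aldh18a1 probe sets gave smaller differences. On 1435855_x_at all KO arrays (300 to 423) lay below all wild-type arrays (458 to 526), with a log2 difference of -0.38 ± 0.15. On 1437333_x_at (-0.25 ± 0.27) and 1437620_x_at (0.00 ± 0.26) the groups overlapped. Without the array labelled KO replicate 2 the differences were, in this order, -0.40 ± 0.16, -0.32 ± 0.30 and 0.08 ± 0.28. In the array maker's naming the suffix x marks probe sets that can also bind other sequences. The summed signal of 10 fibroblast markers was 41021 to 66661 on the KO arrays and 63294 to 72374 on the wild-type arrays, all 10 were tested and none was at 0. Limma called 0 of them (3 were lower at an unadjusted p under 0.05, against 8.55% of all tested probe sets). It called 3 lower without the array labelled KO replicate 2, against 5.02% of all genes. At the unadjusted threshold 3 of 9 endothelial markers and 1 of 7 nerve markers were also lower, and 0 of either were higher. The part of these cell types in the lower Aldh18a1 signals was not tested.

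Oat, which turns ornithine into the same semialdehyde, had a narrow wild-type spread, a coefficient of variation of 2.82%, with 3.47% on Got2 1417715_a_at the next. It read 3754, 3093, 3177 and 3267 on KO replicates 1 to 4. Wild-type replicates 1, 3 and 4 read 2786, 2727 and 2634. The groups did not overlap, but the log2 difference was small, 0.28 ± 0.10 (1.22-fold), and the fit did not call it with all arrays or without the array labelled KO replicate 2 (0.32 ± 0.10).

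Asns is a textbook target of the transcription factor Atf4, which binds a composite C/EBP-ATF element in its promoter. On 1451095_at it read 4444, 5046, 5000 and 6487 on KO replicates 1 to 4 and 5661, 5663 and 4922 on wild-type replicates 1, 3 and 4. The groups overlapped, with the highest and the lowest array both KO. The log2 differences were -0.06 ± 0.13 on this probe set and -0.16 ± 0.15 on 1433966_x_at (2038 to 2898 in KO, 2204 to 3015 in wild type). Without the array labelled KO replicate 2 they were -0.04 ± 0.14 and -0.27 ± 0.13, neither of them called.

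**Figure D3:**
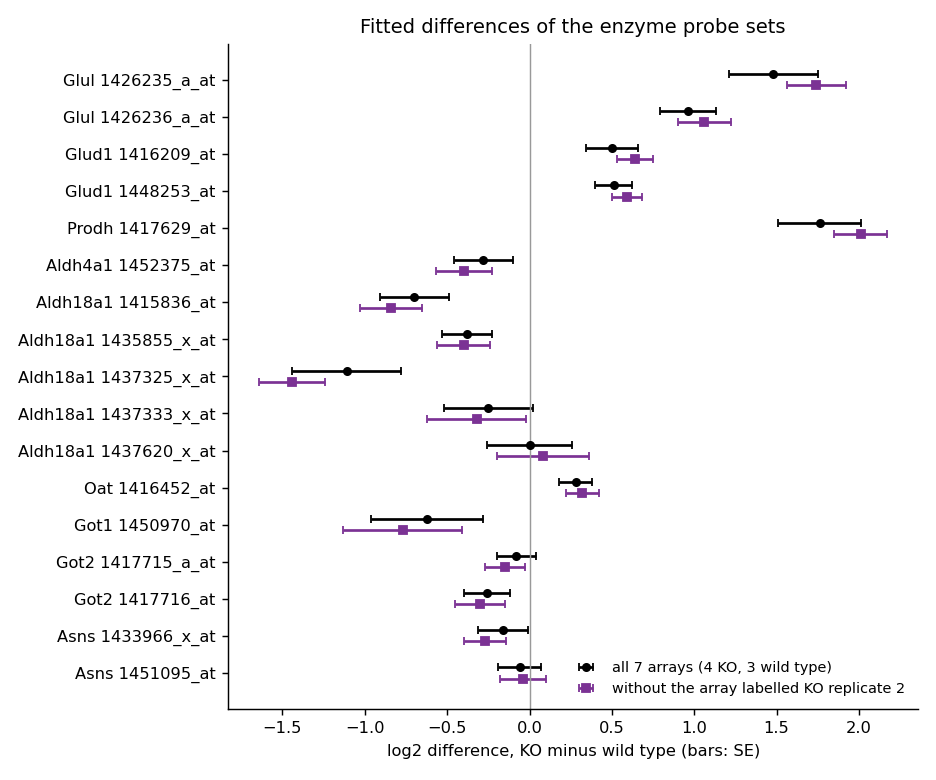
Fitted log2 differences, KO minus wild type, with SE bars, of the 17 tested probe sets, from all 7 arrays (black circles) and without the array labelled KO replicate 2 (purple squares). Leaving that array out moved the Prodh difference from 1.76 to 2.01 and that of Aldh18a1 1437325_x_at from -1.11 to -1.44. Asns 1451095_at lay close to 0 in both fits, while Asns 1433966_x_at moved from -0.16 to -0.27.

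The promoter table held 1 promoter for each of the 9 genes, among 32851 promoters of 27025 genes. The 250 bases before each start were searched on both strands for 6 motifs. The C/EBP-ATF element TGATGNAAN was in 2 of the 9 (Asns and Got1) and in 3.44% of all promoters. The E-box CACGTG was in 1 (Aldh18a1; 6.02% of all), the Sp box GGGCGG in 4 (32.7%) and the NF-Y box CCAAT in 4 (33.8%). The cAMP element TGACGTCA (1.55%) and the full palindrome of the glucocorticoid element (0.00913%) were in 0. In Glul 2 CCAAT boxes and 1 GGGCGG box lay within the last 113 bases, and in Glud1 2 of 3 GGGCGG matches were adjacent.

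Asns and Got1 are shown over 60 bases, since these windows hold the C/EBP-ATF matches while neither gene was higher in KO. The Asns window (chr6:7693210-7693269, minus strand) starts 60 bases before the gene and its match starts at position -23. The Got1 window (chr19:43524671-43524730, minus strand) starts 125 bases before the gene, with the match on the opposite strand from position -103, overlapping a CCAAT box on that strand by 1 base. A match describes letters and is not a bound site.
Asns: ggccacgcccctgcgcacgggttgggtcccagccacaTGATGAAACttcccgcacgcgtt
Got1: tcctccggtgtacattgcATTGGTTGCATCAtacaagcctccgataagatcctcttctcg

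Other genes of these pathways were taken from 5 lists: 104 genes that are not among the 9, of which 82 had a tested probe set. These lists were also drawn up with earlier results of these data known. Their counts, and the p-values of their genes below, are therefore descriptions and not independent tests. With each gene counted once, by its brightest probe set, 3 of the 82 rose in KO and 1 fell (limma, adjusted over all probe sets), against 1.14% and 0.71% of all 13102 genes tested. Before adjustment 12 of the 82 were higher and 15 lower with p under 0.05. Of all tested probe sets 7.97% were higher and 8.55% lower by that threshold. These shares by probe set are the ones to set beside the list counts before adjustment below, since no share by gene was counted at that threshold. The adjusted list counts below are to be set beside the shares of all genes in this paragraph. The risers were the carriers Slc38a2 and Slc1a3 and the stress gene Nupr1, and the gene that fell was Azin1. Without the array labelled KO replicate 2, 7 rose and 11 fell, against 3.4% and 5.02% of all genes.

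**Figure D4:**
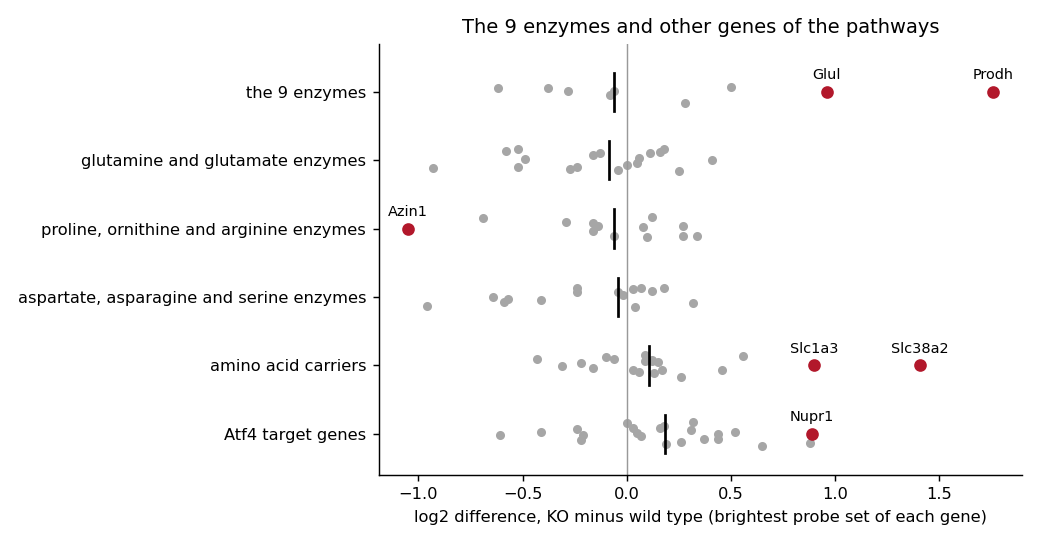
Each point is the brightest tested probe set of a gene, placed by its log2 difference, KO minus wild type; red points with names passed the limma threshold with all 7 arrays, grey points did not, and black bars are list medians. The list medians lie between -0.08 and 0.19, and the named genes stand away from them on both sides.

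Amino acid carriers (20 of 27 genes tested) had a median log2 difference of 0.10, with 2 genes higher and 0 lower (before adjustment 4 and 1 had p under 0.05). Slc38a2, which brings glutamine, alanine and other small neutral amino acids into cells, read 5554, 2754, 4150 and 4756 on KO replicates 1 to 4 and 1456, 1670 and 1524 on wild-type replicates 1, 3 and 4. The groups did not overlap, and KO replicate 2 was again the lowest KO array. The gene rose 2.66-fold (log2 difference 1.41 ± 0.20, limma adjusted p = 0.0198), another probe set rose by 1.43 (not called without a filter) and the last (0.46) did not pass.

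Slc1a3, a glutamate and aspartate carrier of the cell membrane, read 1049 to 1376 on the KO arrays and 599 to 676 on the wild-type arrays. It rose 1.86-fold (log2 difference 0.90 ± 0.13, limma adjusted p = 0.0199), a second of its 4 tested probe sets rose (0.88) and the other two did not pass (0.68 and 0.44). The mitochondrial glutamate carrier gene Slc25a22 (0.46 ± 0.16) and the basic amino acid carrier gene Slc7a1 (-0.43 ± 0.14) did not pass. Slc1a5, another glutamine carrier gene, read 7464 ± 1080 (SD, n = 4) in KO and 6587 ± 505 (n = 3) in wild type.

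Among proline, ornithine and arginine genes (13 of 21 tested, median -0.06) 0 rose and 1 fell (before adjustment 1 and 3 had p under 0.05). Azin1, which protects ornithine decarboxylase from its antizyme, read 594, 900, 637 and 659 on KO replicates 1 to 4 and 1347, 1467 and 1556 on wild-type replicates 1, 3 and 4. All KO arrays lay below all wild-type arrays, and the gene fell by 1.05 on the log2 scale (SE 0.15, limma adjusted p = 0.0199), while its other 2 tested probe sets (-0.19 each) did not pass. Odc1, the decarboxylase of ornithine that starts polyamine synthesis, fell on 1438761_a_at (1233 to 1664 in KO, 2186 to 2391 in wild type; log2 difference -0.69 ± 0.12, limma adjusted p = 0.029), a call lost with scaling by the median (0.0509) and without a filter (0.0507). On its brightest probe set the difference was also -0.69 but did not pass (limma adjusted p = 0.0523), and on the remaining one it was -0.07. Oaz2 (-0.29) and Asl (0.34) did not pass.

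Among other glutamine and glutamate enzymes (18 of 23 tested, median -0.08) 0 passed limma's adjusted threshold in either direction (before adjustment 1 higher and 6 lower had p under 0.05), and 5 fell without the array labelled KO replicate 2. Gpt, an alanine aminotransferase that makes glutamate from 2-oxoglutarate, read 1501, 2970, 1596 and 1682 on KO replicates 1 to 4 and 3721, 3258 and 3784 on wild-type replicates 1, 3 and 4. All KO arrays lay below all wild-type arrays, with KO replicate 2 closest (log2 difference -0.93 ± 0.21, limma adjusted p = 0.0531). Nadsyn1 (-0.58), which uses glutamine to make NAD, Cad (-0.52), which uses it for pyrimidines, and Aldh5a1 (-0.52) did not pass with all arrays.

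Aspartate, asparagine and serine enzymes (15 of 15 tested, median -0.04) had 0 genes past limma's adjusted threshold by the brightest probe set (before adjustment 1 higher and 4 lower had p under 0.05), and 3 fell without the array labelled KO replicate 2. Ddo, which oxidises D-aspartate, fell on its dimmer probe set (408 to 685 in KO, 877 to 1208 in wild type; log2 difference -0.93 ± 0.18, limma adjusted p = 0.0357; 0.0544 with scaling by the median and 0.0694 without a filter), and on the brighter one it was at -0.96 ± 0.26 and did not pass. Adsl (-0.57) and Adssl1 (-0.59), of purine synthesis from aspartate, and Nat8l (-0.64), which acetylates aspartate, did not pass.

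Of Atf4 and its target genes (22 of 25 tested, median 0.19) 1 rose and 0 fell (before adjustment 6 and 1 had p under 0.05). Nupr1, a small chromatin protein of the stress response, rose on both probe sets, from 561 ± 146 (SD, n = 3) to 1053 ± 147 (n = 4) on the brighter (log2 difference 0.89 ± 0.19, limma adjusted p = 0.0446) and by 1.02 on the other. The brighter probe set did not pass with scaling by the median (limma adjusted p = 0.0729), quantile normalization (0.0536), no filter (0.0818) or within the second run of accessions (0.0805), and the other did not pass without a filter (0.0553). Trib3 (0.88 ± 0.28), Sesn2 (0.65 ± 0.19) and Eif4ebp1 (0.52 ± 0.11) did not pass. Atf4 itself read 3241 to 5613 in KO and 2581 to 4042 in wild type, and the serine synthesis genes Phgdh and Psat1, on the list like Asns for their response to Atf4, had log2 differences of 0.07 and -0.24. Without the array labelled KO replicate 2, 4 genes of the list rose and 1 fell.

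The pattern of each gene with a called probe set was compared over the 7 arrays with the other genes that had a tested probe set. Pearson correlation of log2 values was used, and 13102 genes were tested in all. The genes given here had the highest r of those compared, so each r is picked from a large search. These correlations describe 7 arrays that share the same 2 groups. Slc38a2 was the gene most like Prodh (r = 0.999), followed by D230025D16Rik (0.997) and Serinc3 (0.994). Etfbkmt, a methyltransferase gene (0.993), Phactr4 (0.992) and the cytochrome P450 gene Cyp2b10 (0.991) were most like Glul 1426236_a_at. Ifngr1, the interferon gamma receptor gene (0.999), Cldn15 (0.998) and Smc6 (0.993) were most like Glud1 1448253_at.

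**Figure D5:**
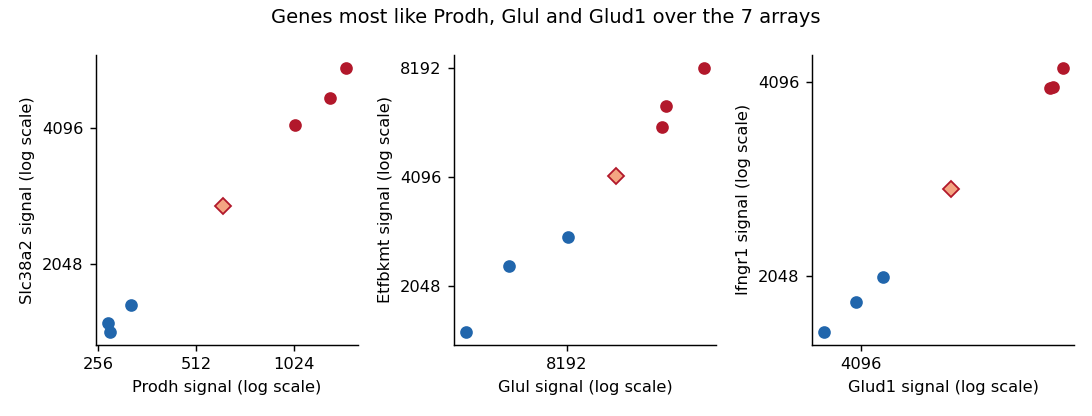
Signals of Prodh, Glul 1426236_a_at and Glud1 1448253_at (horizontal, log axes) against those of the gene most like each (vertical, log axes), 1 point per array, wild type in blue and KO in red. In the panel of Prodh and Slc38a2 the array labelled KO replicate 2 (pale diamond, at 620 and 2754) lies between the 3 wild-type arrays and the other 3 KO arrays.

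Liver expresses many of the 9 enzymes at a high level, so liver markers were read beside them. Of 7 hepatocyte markers 5 were tested, limma called 0 (0 also at an unadjusted p under 0.05) and all 5 had a lower fitted level in KO. Their summed signal ran from 1184 on KO replicate 3 to 12024 on KO replicate 4, and from 1791 on wild-type replicate 3 to 21446 on wild-type replicate 4. Albumin (Alb) read 493, 4129, 411 and 4810 on KO replicates 1 to 4 and 2866, 569 and 9470 on wild-type replicates 1, 3 and 4. The part of liver RNA in the signals of the 9 enzymes was not tested. None of the 5 was at 0 on any array.

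Muscle markers followed another division of the arrays. The summed signal of 14 skeletal muscle markers, all tested and 0 called by limma (1 higher at an unadjusted p under 0.05), was 47621 to 54357 on wild-type replicate 1 and KO replicates 1 and 2, and 26858 to 33264 on the other 4 arrays. The accessions of these 3 arrays form a separate run from those of the other 4, and no label calls either a batch. Within the 4 arrays of the second run (2 KO, 2 wild type) the log2 differences were 1.92 ± 0.18 and 1.15 ± 0.12 for Glul, 1.87 ± 0.18 for Prodh, and 0.62 ± 0.10 and 0.56 ± 0.11 for Glud1.

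The calls rest on few arrays. Without KO replicate 1 the fit called 1 of the 17 probe sets higher (Prodh), against 0.111% of all tested probe sets, and without wild-type replicate 1 it called 1 (Glul 1426236_a_at), against 0.074%. It called 0 without KO replicate 3 (0.0259% of all), KO replicate 4 (0.0444%), wild-type replicate 3 (0.0259%) or wild-type replicate 4 (0.0259%), and 0 in a fit without the mean-variance trend (0.0111%). Without the array labelled KO replicate 2 it called 5 higher and 2 lower, against 3.14% and 4.21% of all. Of the 82 pathway genes, Slc38a2 alone rose without KO replicate 1, and 0 passed without KO replicate 3 or 4, without any one wild-type array or without the trend. In these 6 fits, before adjustment, 9 to 11 of the 82 were higher and 12 to 18 lower at p under 0.05. With all 7 arrays in the main fit these counts were 12 and 15.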

How the data were processed

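Total RNA, extracted with Trizol and labelled with biotin per the labels' protocols, was hybridised to arrays. The authors deposited intensities on a linear scale, and the submitters' processing notes name GCOS 1.2. The sources used here give neither the scaling method nor a genome build. Deposited values were not rescaled, since means after trimming 2% at each end were 497 to 498 on all 7 arrays.

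Of 45101 probe sets 64 controls were left out. A gene name was taken only where a probe set had a single symbol (34945; several for 932, none for 9160), updated through RefSeq gene identifiers (GRCm38.p6). Promoters are RefSeq's. Intensities were analysed as log2(signal + 30.6), where 30.6 is the 20th percentile of the table. Probe sets with a mean under the 40th percentile over all arrays were not tested, which left 27022. KO was compared with wild type by limma 3.58.1 in R 4.3.3 (eBayes, trended variance, two-sided, Benjamini-Hochberg threshold 0.05, no covariate). No label says that samples are separate animals, so p-values reflect spread that may be technical. The number of arrays limits the precision.

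Genes named were every probe set of the 9, the 4 genes of smallest p and all called ones in each pathway list, and the 3 genes most like each member with a called probe set. Slc1a5, Atf4, Phgdh, Psat1, Alb and Xist fall outside this rule and were named after their values were seen. Further markers read beside the results were of macrophages (summed signal 10623 to 17783 in KO, 13186 to 14365 in wild type), endothelial cells (15937 to 19262 and 15418 to 19481), nerve (5076 to 8176 and 7645 to 9571) and lymphoid cells (576 to 764 and 704 to 792, 3 of 10 tested). The members and lists were chosen with earlier results of these data known. Alternatives were other scalings, offsets, filters and variance models, array weights, the replicate number as a block, the deposit run and leaving out each array; those for single pathway genes were added after seeing the data.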

Additional observations from a re-analysis of the deposited data

Results flagged for a closer look

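Glud1 on 1448253_at had 1 KO array far from the other 3: KO replicate 2 read 4926 against 6026, 6065 and 6183, a gap of 0.876 of the whole range of the KO arrays. The limit for naming such a gap is one that chance passes in about 1 in 20 groups of 4, and the KO arrays of 19 probe sets were screened. The log2 difference of this probe set was 0.51 with all arrays and 0.59 without that array.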

How the results depend on the processing

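Over 18 alternatives, 15 of the 17 tested probe sets of the 9 genes kept the sign of their difference wherever they could be fitted, including all 4 called ones. Changing the filter or leaving out the variance trend does not alter the difference itself, so the sign could not change there. On the 4 called ones all KO arrays lay above all wild-type arrays, so leaving out 1 array could not reverse it. The kept sign of these 4 is therefore no test of them. The exceptions were Aldh18a1 1437620_x_at and Asns 1451095_at. The difference ranged from 1.57 to 2.01 for Prodh, from 1.29 to 1.92 and from 0.80 to 1.15 for Glul and from 0.47 to 0.62 for Glud1 1448253_at. The calls moved more than the differences. All probe sets called were 431, and 236 with scaling by the median, 100 without a filter, 6 without the mean-variance trend, 1312 with array weights, 726 within the second deposit run and 7 to 1986 with 1 array left out. Probe sets of the 9 genes called higher were 4, and 3 with scaling by the median or an offset of 1, 1 without a filter, 0 without the trend and 0 to 5 with 1 array left out. Those called lower were 0, and 2 with array weights, 1 within the second run and 0 to 2 with 1 array left out. Pathway genes called higher were 3, and 0 without the trend, 5 with array weights and 0 to 7 with 1 array left out. Pathway genes called lower were 1, and 2 with quantile normalization, 3 with an offset of 100, 4 with a 60th percentile filter, 0 without the trend, 9 with array weights, 4 with the deposit run as a covariate, 7 within the second run, 3 by any probe set of a gene and 0 to 11 with 1 array left out. With the replicate number as a block, 2183 probe sets were called, 5 higher and 2 lower among those of the 9 genes, and 9 pathway genes higher and 11 lower. Arrays of the same number correlated by 0.0567, 0.149 and 0.105 in their deviations from the group means, so the numbers were not taken to pair samples. KO replicate 2 has no partner, so the block sets it aside and gives the same differences as the fit without it. The cause of the other shifts was not tested.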
